A study of Mus musculus with 6 samples.

Results

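The Ifitm genes encode interferon-induced transmembrane proteins, small membrane proteins that block the fusion of enveloped viruses with the cell. The 4 members described here, Ifitm1, Ifitm2, Ifitm3 and Ifitm10, were taken by gene symbol from a table of 15898 genes. The family was chosen by its counts in IL-10/Fc against PBS libraries and by the variation of Ifitm1 among the former, so its values in that contrast are given as a description, with no test. Counts came from CD8+ T cells with PD-1 and TIM-3, receptors that mark exhausted T cells, sorted from B16F10 melanomas of C57BL/6 mice, in 2 libraries from tumours treated with phosphate-buffered saline (PBS) and 4 from tumours treated with IL-10/Fc, in which interleukin-10, a cytokine, is joined to an antibody Fc part. Both groups share every other step: total body irradiation with 4 Gy, intravenous transfer of naive Thy1.1+ PMEL T cells, inoculation of B16F10 cells, and, on day 10, a second transfer of activated Thy1.2+ PMEL T cells. PMEL cells carry a transgenic receptor for a melanocyte antigen: the donor genotype joins the congenic Thy1.1 background, B6.Cg-Thy1a/Cy, with the transgene Tg(TcraTcrb)8Rest/J. From that day the animals received 4 injections beside the tumour, of PBS or of 20 µg IL-10/Fc, and on day 18 Thy1.1+ CD8+ cells bearing PD-1 and TIM-3 were sorted, 500 per library. The labels give no ages and do not say whether libraries are separate mice, so a p-value here reflects variation among these libraries that may be technical.

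As background, Ifitm1, Ifitm2 and Ifitm3 are switched on by type I and type II interferons, through STAT and IRF factors that bind their promoters. IFITM1 sits mainly at the cell surface, where lymphocytes carry it in a complex with the tetraspanin CD81, while IFITM2 and IFITM3 act in endosomes and lysosomes. IFITM3 is known to be kept by resident memory CD8+ T cells, which it protects from infection. Ifitm10 belongs to the same family by sequence, and its function is little known.

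The promoters of the 3 interferon-induced members are shown because interferon-activated factors act there. Sequences are from RefSeq (GRCm38.p6), 5′ to 3′ on the gene's own strand, and capitals mark the core of the interferon-stimulated response element (GAAA, any pair of bases, then GAAA again). For Ifitm2 (chr7:140955962-140956081, minus strand) and Ifitm1 (chr7:140967956-140968075, plus strand) the 120 bases before the transcription start are printed, and for Ifitm3 (chr7:141010716-141010835, minus strand) the 91 bases before and 29 after it.
Ifitm2: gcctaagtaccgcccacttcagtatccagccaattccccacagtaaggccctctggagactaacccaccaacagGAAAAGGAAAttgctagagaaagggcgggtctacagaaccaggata
Ifitm3: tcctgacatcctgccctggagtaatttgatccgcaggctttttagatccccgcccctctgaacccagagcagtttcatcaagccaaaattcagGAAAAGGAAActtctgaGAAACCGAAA
Ifitm1: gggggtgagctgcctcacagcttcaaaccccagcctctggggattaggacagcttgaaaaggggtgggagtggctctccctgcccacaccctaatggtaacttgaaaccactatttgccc

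Windows from 250 bases before to 50 after the start were searched on both strands. All 4 members had a window, Ifitm10 with 3 of them. Ifitm2 held 1 match to the response element core, whose first base lies at position -46 from the start. Ifitm3 held 2, at positions 3 and 20 after it, and the first of these has the same 10 letters as the match of Ifitm2. A match to TTCNNNGAA, the gamma-activated STAT site, starts at position 14 of Ifitm3 and overlaps the start of the second core. The windows of Ifitm1 and Ifitm10 held neither motif. Of 32817 promoter windows of this length, 3.43% held the response element core and 8.29% held TTCNNNGAA. The Ifitm1 window belongs to 1 RefSeq start only, at 140968076. GENCODE M21 lists 3 different starts for this gene, at 140967221, 140968028 and 140968040, the last pair within the printed bases. Its starts for Ifitm2 (140955987) and Ifitm3 (141010770) also differ from those used here (140955961 and 141010744). The positions given thus depend on the annotation. A match is a description of letters, not of binding.

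Ifitm1 (ENSMUSG00000025491, chromosome 7, 140967221 to 140969825, plus strand, GRCm38) was the member that differed most between the groups. Its level stood at 17.6 and 25.5 CPM (counts as a share of the library total, scaled by TMM, a correction for library composition) in PBS replicates 1 and 2. In IL-10/Fc replicates 1 to 4 it stood at 2063, 175, 189 and 381 CPM. All 4 IL-10/Fc libraries lay above both PBS libraries, the lowest of them at 6.86-fold the higher PBS library, and replicate 1 stood apart from the other 3. The means were 702 ± 912 CPM (SD, n = 4) under IL-10/Fc against 21.5 ± 5.63 CPM (SD, n = 2) in PBS. The log2 fold change was 5.03 (SE 1.41) in a quasi-likelihood fit of edgeR across all genes, and 3.52 (SE 0.46) without IL-10/Fc replicate 1. Without that library the IL-10/Fc mean was 248 ± 115 CPM (SD, n = 3), which is 11.5-fold the PBS mean.

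Ifitm2 (ENSMUSG00000060591, chromosome 7, 140954837 to 140955987, minus strand) lies 11234 bases from Ifitm1. Its level was 33.2 and 17.2 CPM in the PBS libraries and 95.1, 80.3, 74.6 and 79.9 CPM in IL-10/Fc replicates 1 to 4. The groups did not overlap, and the IL-10/Fc libraries lay close together (the highest was 1.28-fold the lowest), while PBS replicate 1 lay well above PBS replicate 2. The log2 fold change was 1.71 (SE 0.29), with means of 82.5 ± 8.83 CPM (SD, n = 4) against 25.2 ± 11.3 CPM (SD, n = 2). It was 2.26 without PBS replicate 1 and 1.31 without PBS replicate 2.

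Ifitm3 (ENSMUSG00000025492, chromosome 7, 141009586 to 141010770, minus strand) stood at 32.4 and 77.4 CPM in PBS. In IL-10/Fc replicates 1 to 4 it stood at 108, 188, 247 and 336 CPM. The groups did not overlap, but the lowest IL-10/Fc library was 1.40-fold the higher PBS library. That lowest library was replicate 1, the one with the most Ifitm1. The log2 fold change was 2.00 (SE 0.56), and it was 1.50 without PBS replicate 1 and 2.76 without PBS replicate 2. Mean levels were 220 ± 96.0 CPM (SD, n = 4) under IL-10/Fc against 54.9 ± 31.8 CPM (SD, n = 2).

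Ifitm10 (ENSMUSG00000045777, chromosome 7, 142325837 to 142373753, minus strand) lies outside the cluster, more than a megabase away. Its level was 16.5 and 38.6 CPM in PBS and 45.5, 60.7, 27.1 and 40.8 CPM in IL-10/Fc replicates 1 to 4. Here the groups overlapped, since IL-10/Fc replicate 3 lay below PBS replicate 2. The log2 fold change of 0.66 (SE 0.44) was 0.17 without PBS replicate 1 and 1.39 without PBS replicate 2.

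**Figure D1:**
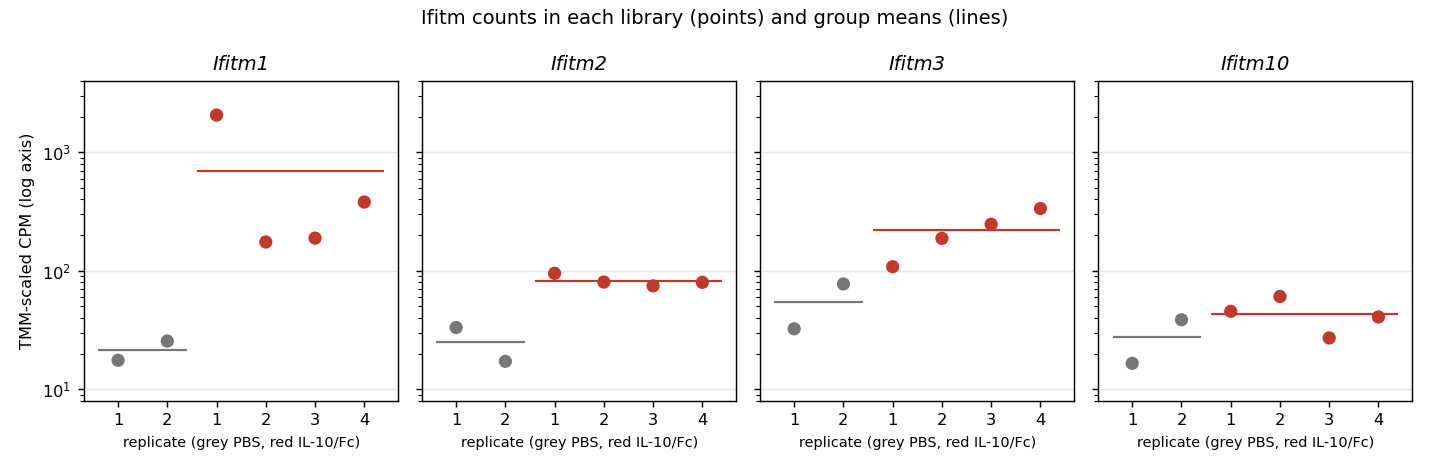
Level of each Ifitm gene in every library, in TMM-scaled CPM on a log axis: grey points are the 2 PBS libraries, red points the 4 IL-10/Fc libraries, and lines the group means. Ifitm1 reaches 2063 CPM in IL-10/Fc replicate 1, where Ifitm3 has its lowest IL-10/Fc value of 108 CPM, and Ifitm10 overlaps between the groups.

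In edgeR's test over 15477 genes with Benjamini-Hochberg adjustment at 0.05, 0 of the 4 members passed, where 0.00646% of all genes did. The authors' deposited table called Ifitm1, Ifitm2 and Ifitm3 higher and did not call Ifitm10, where it called 3.57% of all genes higher and 1.72% lower. For 3 of 4 members all IL-10/Fc libraries lay above both PBS libraries, as they did for 12.1% of genes tested. Nothing is read from these shares, because this contrast was in view when the family was chosen.

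The make-up of the family's counts differed between libraries. Ifitm1 took 17.6% and 16.1% of the CPM summed over the 4 genes in the PBS libraries, against 89.2%, 34.7%, 35.1% and 45.5% across IL-10/Fc replicates 1 to 4. Its share was higher in each IL-10/Fc library than in either PBS library. Ifitm3 took 32.5% and 48.8% in PBS, against 4.68%, 37.3%, 46.0% and 40.1% under IL-10/Fc. So the Ifitm3 share lay outside its PBS range only in IL-10/Fc replicate 1. The sum itself stood at 99.7 and 159 CPM in PBS and at 2311, 504, 537 and 837 CPM in IL-10/Fc.

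Levels of different genes were compared per kilobase of exon (GENCODE M21 lengths of 1094 bases for Ifitm1, 655 for Ifitm2, 678 for Ifitm3 and 4789 for Ifitm10). In PBS the order of the mean levels was Ifitm3 at 81.0 ± 47.0 CPM per kilobase (SD, n = 2), Ifitm2 at 38.5 ± 17.3, Ifitm1 at 19.7 ± 5.14 and Ifitm10 at 5.76 ± 3.26. Ifitm3 and Ifitm2 were not separated there: Ifitm2 was the higher in PBS replicate 1, at 50.7 against 47.7 CPM per kilobase. Ifitm10 lay below the other 3 genes in both libraries. In IL-10/Fc the mean per kilobase was highest for Ifitm1, at 641 ± 834 (SD, n = 4), followed by Ifitm3 at 324 ± 142, Ifitm2 at 126 ± 13.5 and Ifitm10 at 9.08 ± 2.89. That first place rests on replicate 1, with 1885 CPM per kilobase of Ifitm1 against 160 of Ifitm3. In replicates 2 to 4 Ifitm3 was the higher, at 277, 364 and 495 against 160, 172 and 348 CPM per kilobase. Ifitm2 as counted lay below Ifitm1 in all 4 IL-10/Fc libraries, and below Ifitm3 as well. Its place in both orders is uncertain, since counts on 5 pseudogenes that share its sequence equal 36.3% to 41.0% of its own and are not included.

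**Figure D2:**
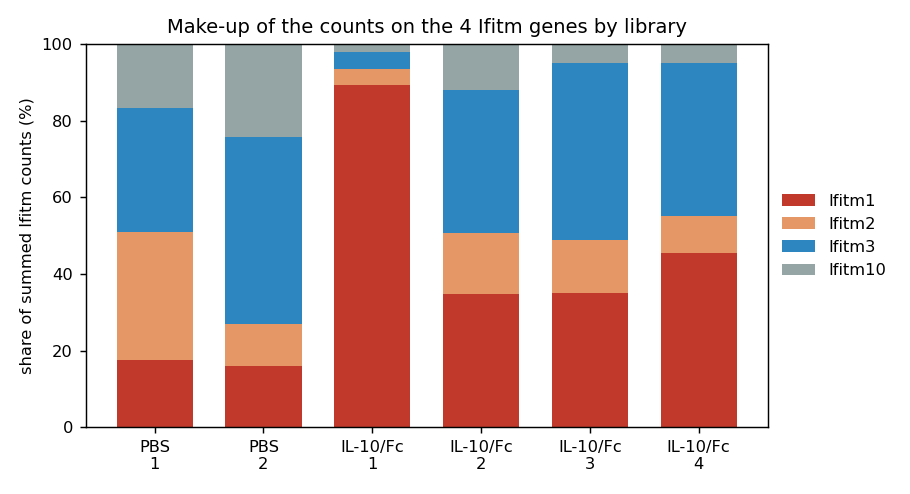
Share of each gene in the TMM-scaled CPM summed over the 4 Ifitm genes, in percent, for each of the 6 libraries (bars from 0 to 100). Ifitm1 makes up 89.2% in IL-10/Fc replicate 1 and 34.7% to 45.5% in the other IL-10/Fc libraries.

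Among the IL-10/Fc libraries, Ifitm1 ranged 11.8-fold from lowest to highest. The SD of its log2(CPM + 1) over these 4 libraries was 1.65, where the median of 5452 genes with a mean of at least 20 CPM was 0.20, and 21 of these genes varied more. Without replicate 1 the SD was 0.62. Ifitm2 varied less than most genes, with an SD of 0.15, above 34.2% of the genes compared. Ifitm3 had an SD of 0.69, above 97.4% of them, and Ifitm10 of 0.47, above 91.5%. Ifitm1 and Ifitm2, neighbours on the chromosome, were thus the most and the least variable of the 4.

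**Figure D3:**
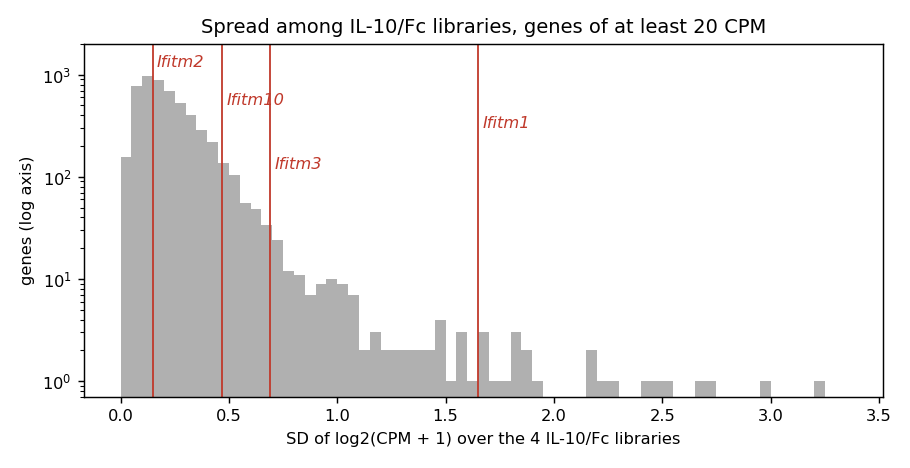
Histogram of the SD of log2(CPM + 1) over the 4 IL-10/Fc libraries for 5452 genes with a mean of at least 20 CPM (genes on a log axis), with red lines at the Ifitm genes. Ifitm2 sits at 0.15 near the median, and Ifitm1 at 1.65 far in the tail.

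Ifitm1 in IL-10/Fc replicate 1 was 5.42-fold the next highest IL-10/Fc library. Of the 5452 genes, 1 had a larger ratio by that measure, the processed pseudogene Gm7676 (chromosome 8, 13896311 to 13896629) with 5.60. Gm7676 stood at 0.78 and 1.24 CPM in PBS and at 96.9, 7.95, 9.55 and 17.3 CPM in IL-10/Fc. These values were between 4.45% and 5.06% of the Ifitm1 value in every library. Of the 1056 different stretches of 50 bases in Ifitm1 transcripts, 3.69% also occur in Gm7676 and 1.42% in Ifitm3, so a small part of the reads could be assigned to more than 1 of these genes, and the counts on Gm7676 are uncertain.

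Ifitm2 was less easily told from its copies. Of 606 stretches of 50 bases in its transcript, 48.5% also occur in transcripts of another gene. Gm45717 alone holds 36.1% of the stretches. It is a longer model that shares 268 exon bases with Ifitm2 at the same place and strand, so it is no copy elsewhere. It was not analysed here. The others include 5 processed pseudogenes of the deposited table (Gm11951, Gm2840, Gm45308, Gm45432 and Gm8865). Each of these holds between 2.8% (Gm45432) and 14.9% (Gm11951) of the stretches. Counts on the 5 pseudogenes summed to 13.6 and 6.24 CPM in PBS and to 35.8, 31.3, 30.3 and 31.4 CPM in IL-10/Fc. That is 36.3% to 41.0% of the Ifitm2 value in each library, so the sum followed Ifitm2 in every library. The absolute level of Ifitm2 is therefore uncertain. For Ifitm3, 10.0% of 629 stretches occur in transcripts of another gene. For Ifitm10 it is 3.51% of 4785, all in Gm49369, a model that overlaps it on the same strand.

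The genes with the pattern most like each member were found among 4626 genes with a mean of at least 20 CPM and a named symbol, pseudogenes left out. Likeness was the root mean square distance between centred log2(CPM + 1) values over all 6 libraries. Nearest to Ifitm1 was Ly6g5b, a gene of the Ly6 family, at a distance of 0.81, where the median gene was 2.31 away. Ly6g5b stood at 4.31 and 7.29 CPM in PBS and at 119, 24.6, 28.1 and 46.7 CPM in IL-10/Fc. It was thus highest in the same library as Ifitm1. Gstm5, Upp1, Ccl9 and Styk1 followed at distances of 1.17 to 1.25. Over the 4 IL-10/Fc libraries alone the nearest were Ly6g5b, Gstm5, Xcl1, Arrdc3 and Spp1, at 0.57 to 0.83.

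Nearest to Ifitm2 were Slamf7, Satb1, Rtp4, Cd160 and Wdr95, at distances of 0.18 to 0.30, where the median gene was 0.90 away. Rtp4 is itself induced by interferons. Slamf7, a receptor of cytotoxic lymphocytes, stood at 99.0 and 69.3 CPM in PBS and at 344, 239, 202 and 257 CPM in IL-10/Fc. Nearest to Ifitm3 were Flot1, Oxsr1, Adora2b, Gngt2 and Aif1, at 0.26 to 0.43, with a median of 1.13 for all genes. Aif1, a marker of macrophages, stood at 3.19 and 4.67 CPM in PBS and at 11.5, 16.5, 45.5 and 45.2 CPM in IL-10/Fc. The 3 interferon-induced members shared none of these nearest genes. That follows from how far apart the members lie, so it is no separate result. Between the members themselves the distances were 1.63 between Ifitm1 and Ifitm2, 1.87 between Ifitm1 and Ifitm3, and 0.85 between Ifitm2 and Ifitm3.

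Ifitm genes are also expressed by myeloid cells, so markers of cells outside the sort gate were set beside them. The recorded sort purity was 99% for every library. In bulk samples, fewer cells of a type and less RNA per cell cannot be told apart. Of 15 macrophage and monocyte markers, 13 lay higher in IL-10/Fc, and 0 passed edgeR's test with adjustment over all genes (4 were higher and 0 lower at an unadjusted p under 0.05, where 7.2% and 5.52% of all genes were). They summed to 627 and 602 CPM in PBS and to 607, 830, 814 and 977 CPM in IL-10/Fc. Ccr2, which T cells express as well, held much of this, and without it (a choice made after seeing the data) the sums were 267 and 413 against 147, 363, 554 and 669 CPM. Mrc1 was at 0 in both PBS libraries. IL-10/Fc replicate 1, the library with the most Ifitm1, thus had the lowest sum of all 6 libraries without Ccr2. It also had the lowest sum of 8 dendritic cell and MHC class II genes, 115 CPM. The other IL-10/Fc libraries had 595, 1904 and 1004 and the PBS libraries 230 and 311. Most of this sum was H2-Aa, H2-Ab1, H2-Eb1 and Cd74, so it is no measure of dendritic cells. Of 7 tested genes 4 lay higher and 3 lower in IL-10/Fc, and Flt3, Clec9a and Siglech were not listed. Xcr1 had its highest IL-10/Fc value in replicate 1, at 33.2 CPM against 19.1, 21.0 and 24.4.

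Ifitm6, a family member known from monocytes that lies 4929 bases from Ifitm3, had 1 count in IL-10/Fc replicate 1 and 176, 65 and 316 counts in replicates 2 to 4, against 18 and 156 in PBS. Its 0.61 and 5.10 CPM in PBS and at most 9.01 CPM in IL-10/Fc overlapped between the groups. So the macrophage and MHC class II sums and the Ifitm6 value were lowest among the IL-10/Fc libraries where Ifitm1 was highest. Not every macrophage marker followed its sum. Apoe, Mrc1 and Itgam were lowest in IL-10/Fc replicate 2, Adgre1 and Ccr2 in replicate 3, and the rest in replicate 1. The part of myeloid cells in the Ifitm1 result was not tested. For Ifitm3 the reverse held: within IL-10/Fc the gene and the macrophage sum without Ccr2 were both lowest in replicate 1 and highest in replicate 4. Aif1 is left out here, because it was picked for its likeness to Ifitm3 in these libraries. The part of macrophages in the Ifitm3 result was not tested either.

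Of the other marker lists, basophil and mast cell genes (4 of 9 listed) summed to 8.93 and 9.05 CPM in PBS and 3.35 to 5.44 CPM in IL-10/Fc, and Mcpt8 had 1.58 CPM or less in every library. Neutrophil genes (4 of 8 listed) summed to 2.45 and 3.27 CPM in PBS and 4.05 to 6.87 CPM in IL-10/Fc, with S100a8 at 0 in 4 libraries. Fibroblast and endothelial genes (2 of 10 listed) summed to 20.4 and 16.6 against 6.59 to 9.87 CPM, and melanoma genes (5 of 8 listed) to 0.65 and 7.84 against 4.76 to 9.04 CPM. NK cell genes (6 of 8 listed) summed to 113 and 77.8 CPM in PBS and to 119, 218, 532 and 437 CPM in IL-10/Fc. Most of the IL-10/Fc sums was Fcer1g, at 34.4 and 40.7 CPM in PBS against 84.6, 155, 375 and 296 CPM. Of the 6 genes 4 lay higher and 2, Klrb1c and Eomes, lower, while Ncr1 and Klra4 were not listed. The sum is thus no measure of NK cells. B cell genes (2 of 7 listed) summed to 42.5 and 42.8 against 3.92 to 15.5 CPM. Of these, Ighm lay lower in all IL-10/Fc libraries than in PBS, and Cd79b higher. CD4 and regulatory T cell genes (3 of 6 listed) summed to 587 and 454 against 503 to 673 CPM. This sum holds Ctla4, Il2ra and Ikzf2 only. Cd4, Foxp3 and Cd40lg were not among the listed genes, so it is no measure of CD4 cells. The 12 markers of the sorted cells were all present and summed to 7393 and 11394 CPM in PBS and to 13545 to 15228 CPM in IL-10/Fc. For 7 of them all IL-10/Fc libraries lay above both PBS libraries and for 1 below, where 12.1% and 11.5% of all genes did. That 1 was Pdcd1, the PD-1 gene, at 1578 and 1286 CPM in PBS against 700, 1112, 994 and 867 CPM. PBS replicate 1 had the lowest sum of the 12 markers, and also the lowest Ifitm1, Ifitm3 and Ifitm10. Ifitm2 went the other way, at 33.2 CPM in PBS replicate 1 against 17.2 CPM in PBS replicate 2.

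**Figure D4:**
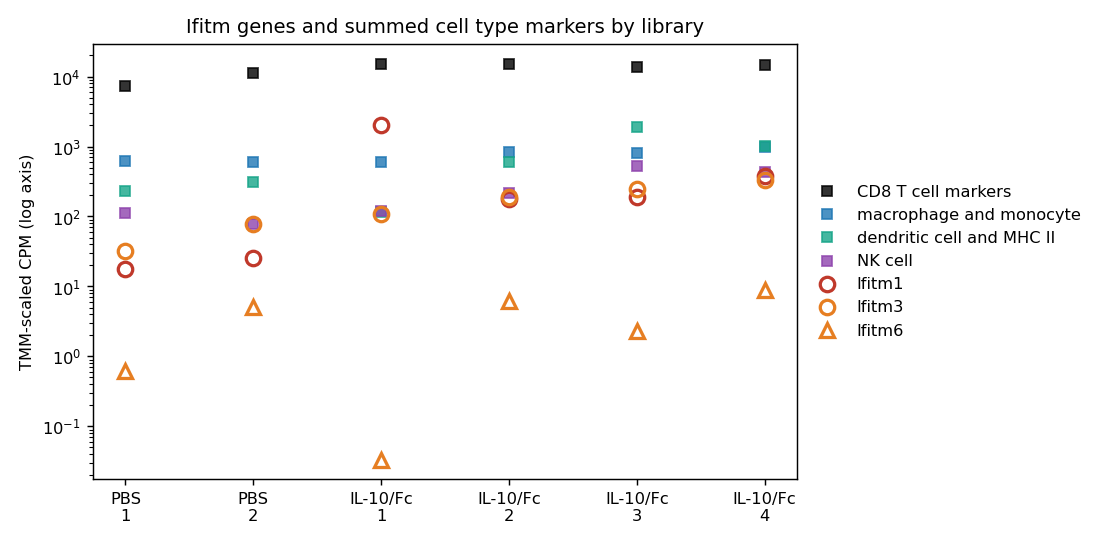
Level of Ifitm1, Ifitm3 and Ifitm6 (open symbols) and summed levels of 4 marker lists (squares) in each library, in TMM-scaled CPM on a log axis. In IL-10/Fc replicate 1, Ifitm1 is at 2063 CPM while Ifitm6 is at 1 count and the dendritic cell and MHC class II sum at 115 CPM.

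The interferon pathway was followed from ligand to target with lists of 75 tested genes. In the edgeR fit, with Benjamini-Hochberg adjustment over all genes, 0 of them passed, where 0.00646% of all genes did. At an unadjusted p under 0.05 there were 12 higher and 2 lower, where 7.2% of all genes were higher and 5.52% lower at that p. DESeq2's Wald test called 8 of the 75, where it called 750 of all genes. Of the ligands, only Ifng, the type II interferon made by T cells, was among the listed genes. It stood at 193 and 1424 CPM in PBS and at 1346, 1746, 3774 and 2361 CPM in IL-10/Fc, so the groups overlapped (log2 fold change 1.51, SE 0.82, adjusted p = 0.509 by edgeR). The log2 fold change of Ifng was 0.69 without PBS replicate 1 and 3.58 without PBS replicate 2.

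Of 17 receptor and signalling genes 15 lay higher, with a median log2 fold change of 0.44, where that of all genes was -0.01. None passed edgeR's test. The receptor chain genes Ifngr1 and Ifnar1 differed little, with log2 fold changes of 0.02 (SE 0.19; -0.15 when scaled by library size only) and -0.17 (SE 0.23). Jak1, a kinase shared by both interferon receptors, stood at 180 and 165 CPM in PBS and at 262, 312, 230 and 252 CPM in IL-10/Fc (adjusted p = 0.21 by edgeR); the authors' deposited table called it higher. Irf9, the DNA-binding part of the factor that binds the response element, stood at 67.9 and 82.8 against 113, 122, 90.8 and 106 CPM (adjusted p = 0.29 by edgeR). For both genes the groups did not overlap. Stat2, which works with it, had a log2 fold change of 0.82 (SE 0.54), Irf7 of 0.40 (SE 0.23) and Irf1 of 0.57 (SE 0.52), each with overlapping groups. Without PBS replicate 1 and without PBS replicate 2 these were 1.42 and 0.40 for Stat2, and -0.0044 and 1.52 for Irf1. Among 9 feedback genes 6 lay higher, with a median of 0.24. The ISG15 protease gene Usp18 had the smallest p of these, with 1.24 (SE 0.45) on the log2 scale and adjusted p = 0.347 by edgeR, and the authors' deposited table called it higher.

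Of 36 antiviral genes induced by interferons 29 lay higher, with a median log2 fold change of 0.68, and 0 passed edgeR's test over all genes. In 11 of them all IL-10/Fc libraries lay above both PBS libraries, and in 1 below, where 12.1% and 11.5% of all genes did. The 4 with the smallest p were Zbp1, Rtp4, Ifi35 and Isg20, at log2 fold changes of 1.93 (SE 0.33), 1.77 (SE 0.31), 0.72 (SE 0.17) and 1.23 (SE 0.34), with adjusted p from 0.16 to 0.262 by edgeR. The authors' deposited table called these 4, Samhd1 and Ifit1 higher, and none of the 36 lower, where it called 3.57% of all genes higher and 1.72% lower. The highest fitted log2 fold change among the 36 was 3.62 (SE 1.53) for Oasl1, a gene at 0 in PBS replicate 2 that is named after its value was seen. The list's mean log2(CPM + 1) was 3.88 and 4.17 in PBS, against 4.60, 4.91, 4.25 and 4.71 across IL-10/Fc replicates 1 to 4. This mean was highest in IL-10/Fc replicate 2, where Ifitm1 had its lowest IL-10/Fc value, though single genes of the list differed in pattern. The part of interferon in the Ifitm1 value of replicate 1 was not tested.

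**Figure D5:**
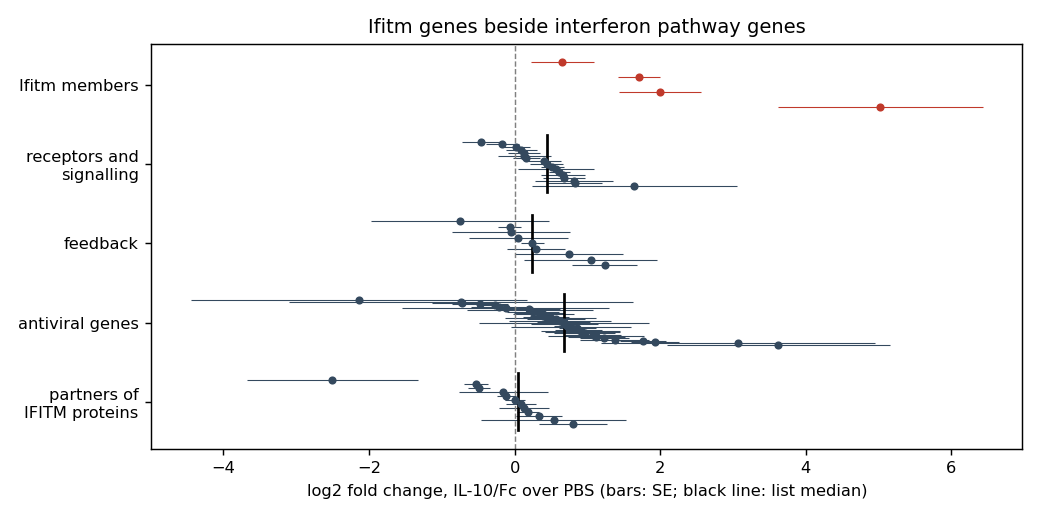
Log2 fold change of IL-10/Fc over PBS for the 4 Ifitm genes (red) and for the tested genes of 4 lists (dark), with bars for the SE and black lines for the list medians. Ifitm1 lies at 5.03 (3.52 without IL-10/Fc replicate 1), and the median of the antiviral list is 0.68.

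Of 12 proteins reported to bind, modify or sort IFITM proteins, 7 had genes that lay higher and 5 lower, with a median log2 fold change of 0.04, and 0 passed edgeR's test. Ap2m1, the clathrin adaptor subunit that takes up IFITM3 from the surface, stood at 202 and 163 CPM in PBS and at 118, 122, 154 and 110 CPM in IL-10/Fc (log2 fold change -0.53, SE 0.17, adjusted p = 0.295 by edgeR). Vcp, an ATPase that extracts ubiquitinated proteins, had a log2 fold change of -0.49 (SE 0.15). Cd81, whose product partners IFITM1, stood at 124 and 9.18 CPM in PBS and at 4.46, 1.95, 22.3 and 18.4 CPM in IL-10/Fc. Its log2 fold change of -2.50 (SE 1.17) was 0.36 without PBS replicate 1. Setd7, a lysine methyltransferase, had a log2 fold change of 0.81 (SE 0.47).

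On chromosome 7, 14 other listed genes lie within 100 kb of a member. By edgeR's test 0 of them passed, with 2 higher and 0 lower at an unadjusted p under 0.05, where 7.2% and 5.52% of all genes were. Their median log2 fold change was 0.17. All IL-10/Fc libraries lay above both PBS libraries for 4 of them and below for 1, where 12.1% and 11.5% of all genes did, and the groups overlapped for 9, Ifitm6 among these. The authors' deposited table called B4galnt4 and Pkp3 higher, where it called 3.57% of all genes higher, and no neighbour lower. B4galnt4, 50334 bases from Ifitm3, was low throughout, at 0.34 and 0.36 CPM in PBS and 2.68, 4.15, 3.31 and 4.19 CPM in IL-10/Fc (log2 fold change 3.34, SE 0.50, adjusted p = 0.148 by edgeR). Pkp3, a plakophilin gene 67448 bases from Ifitm3, stood at 101 and 170 CPM in PBS and at 260, 297, 203 and 226 CPM in IL-10/Fc. Ctsd, the lysosomal protease gene 2158 bases from Ifitm10, stood at 257 and 495 against 689, 567, 498 and 583 CPM.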

How the data were processed

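RNA from 500 sorted cells per library was amplified by Smart-Seq2, which keeps neither strand nor molecular identifiers. Per the submitters' processing notes, the tools named are TopHat2 2.1.1, Bowtie2 2.2.9, Trimmomatic, DESeq2, Cuffdiff and Cufflinks 2.2.1, and the build is GRCm38/mm10; the counter, and its treatment of reads with several matches, are not given in the sources used here. The authors deposited raw counts per gene, used here, with a table of their own log2 fold changes, p-values, mean signal over libraries and a score (fold change over its error) per gene; the last pair were not used. Library totals were 26738871 to 36941814 counts, so 3 counts equal 0.0855 to 0.108 CPM, a limit that covers counting error only. Column names of the series table number the PBS libraries differently from the sample titles. The titles were followed, and 0 values differed from the files per library.

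Counts were fitted with edgeR 4.0.16 in R 4.3.3 (TMM scaling, filterByExpr, robust quasi-likelihood test, two-sided, Benjamini-Hochberg at 0.05 over 15477 genes), after a check on simulated data. Levels are TMM-scaled CPM, and log2 levels add 1 CPM. The SE given for an edgeR log2 fold change is its absolute value divided by the square root of the test's F statistic. Alternatives were limma 3.58.1 (voom), DESeq2 1.42.0, other scaling and filters, a replicate block and leaving out each library. The members and lists were chosen with earlier results of these data known. Named pathway genes are up to 4 per list with the smallest p, plus Ifng, Ifngr1, Ifnar1, Stat2, Irf9, Irf7 and Irf1, and a further gene that is not reported here; exceptions are stated. The 5 nearest genes and all neighbours within 100 kb were taken by rule. Exon lengths and shared stretches of 50 bases came from GENCODE M21 (GRCm38).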

Additional observations from a re-analysis of the deposited data

Results flagged for a closer look

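Ifitm1 in IL-10/Fc replicate 1 stood far from the other libraries of its group, at 2062.5 CPM against 175, 189 and 381. The gap to the nearest library was 0.891 of the group's range, and 0.686 of it on the log2 scale. The variation of Ifitm1 among these libraries chose the family, so this is a description and not a test. The sum of neutrophil markers in IL-10/Fc replicate 4 was 6.87 CPM, where the other 3 libraries had 4.05 to 4.18 CPM, a gap of 0.953 of the range, above Dixon's 95% critical value for 4 samples. In all, 15 items were examined in this way, and chance flags about 1 in 20 groups.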

How the results depend on the processing

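The log2 fold changes of all 4 members stayed positive in each of 14 alternatives. Leaving out 1 library gave 3.52 to 5.35 for Ifitm1, 1.31 to 2.26 for Ifitm2, 1.50 to 2.76 for Ifitm3 and 0.17 to 1.39 for Ifitm10; the remaining PBS library then takes its variance from the IL-10/Fc libraries. The SD of Ifitm1 among IL-10/Fc libraries was 0.62 to 2.02 when 1 was left out. Where edgeR called 1 gene over all genes, the count was 0 with library size only, 0 without the robust option, 750 (515 higher) with DESeq2's Wald test, 58 (42 higher) for genes with at least 20 CPM in at least 2 libraries, and 0 to 16 when 1 library was left out, the 16 without PBS replicate 2; the cause was not tested. Unadjusted p fell under 0.05 for 1970 genes, and for 1188 with the 20 CPM filter. Of the pathway genes, 0 were called, 8 by DESeq2's Wald test and 2 with the 20 CPM filter (Zbp1 and Rtp4). Library size only moved the median log2 fold change of all genes to -0.18 and gave 4.85, 1.53, 1.84 and 0.49 for Ifitm1, Ifitm2, Ifitm3 and Ifitm10. Leaving out 1 library gave -3.40 to 0.36 for Cd81 and -0.0044 to 1.52 for Irf1, both of which turned without PBS replicate 1. It gave -0.13 to 0.11 for Ifngr1, which was -0.15 with library size only and -0.0046 with the 20 CPM filter.

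Replicates 1 and 2 share a number between the groups, and same-numbered libraries deviated together only weakly (r = 0.101 and 0.0751). With 2 PBS libraries the deviations of the PBS group are mirror images of each other. These values therefore cannot decide whether same-numbered libraries were paired. With the replicate number as a block, 0 genes were called, 1207 genes were at an unadjusted p under 0.05, and the values were 4.82, 1.87, 1.51 and 1.05 for Ifitm1, Ifitm2, Ifitm3 and Ifitm10. IL-10/Fc replicates 3 and 4 have no PBS partner. Having 2 PBS libraries limits every comparison.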
